A study of Oryza sativa Japonica Group with 18 samples.

Results

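The HAK/KUP family of K+ transporters was described in roots of Nipponbare rice (Oryza sativa ssp. japonica) through 10 of its genes, OsHAK1, OsHAK2, OsHAK5, OsHAK7, OsHAK9, OsHAK10, OsHAK11, OsHAK16, OsHAK23 and OsHAK25. They were found by gene name or synonym in the annotation of the Affymetrix Rice Genome Array, which gave 14 of the 57194 probe sets in the data, and they are 10 of the 17905 genes with a probe set. A probe set is a group of short oligonucleotides against 1 transcript, and where a gene had 2 of them the one with the higher mean signal over all arrays was taken as its main probe set. Two-week-old hydroponic seedlings, grown at 12 h/12 h light and dark, were then given either complete solution with 1 mM K+ (CK) or the same solution without its K2SO4 (LK), so that the LK roots also lost that source of sulphate. Roots were harvested after 6 h, 3 d and 5 d, with 3 arrays for each of the 6 groups and thus 18 arrays in all, and the RNA on each array came from 5 pooled seedlings. No mutant, transgene or other cultivar was used.

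HAK/KUP/KT proteins are plant membrane carriers that move K+, and several of them couple it to protons, which lets a root cell take up K+ from a very dilute solution. In roots they work beside channels of the AKT1 type, which carry K+ when more of it is available, and other members act at the vacuole membrane or in moving K+ towards the shoot. Withdrawal of K+ is known to raise the transcript of some high-affinity members, OsHAK1 in rice and AtHAK5 in Arabidopsis among them.

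Without K+, transcripts of OsHAK1 rose at all 3 times, those of OsHAK7 at 3 d and 5 d and those of OsHAK11 at 5 d. Those of OsHAK25 fell at 3 d and 5 d, and those of OsHAK23 and OsHAK16 at 5 d. The calls of OsHAK1 at 6 h, of OsHAK25 and of OsHAK23 were lost in some of the 30 other settings tried. OsHAK2, OsHAK5 and OsHAK10 passed the test at no time. OsHAK9 had lower signals in LK at 3 d and higher ones at 5 d, and neither difference passed. At 6 h 1 of the 10 genes was higher and 0 were lower (limma, Benjamini-Hochberg adjusted p under 0.05 over 25165 probe sets). At 3 d 2 were higher and 1 lower, and at 5 d 3 were higher and 3 lower. Among all probe sets tested, 0.27% were higher and 0.258% lower at 6 h, 8.5% and 5.75% at 3 d, and 10.5% and 12.8% at 5 d. In time order, the median log2 fold change of the 10 genes was 0.02, 0.07 and -0.00054, against -0.00068, 0.04 and -0.03 over all probe sets, and members lay on both sides of 0 throughout. Separation of the 3 LK from the 3 CK arrays without overlap was seen for 2 genes at 6 h (background 13.2% of all probe sets), for 5 genes at 3 d (29.6%) and for 7 genes at 5 d (42%).

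**Figure D1:**
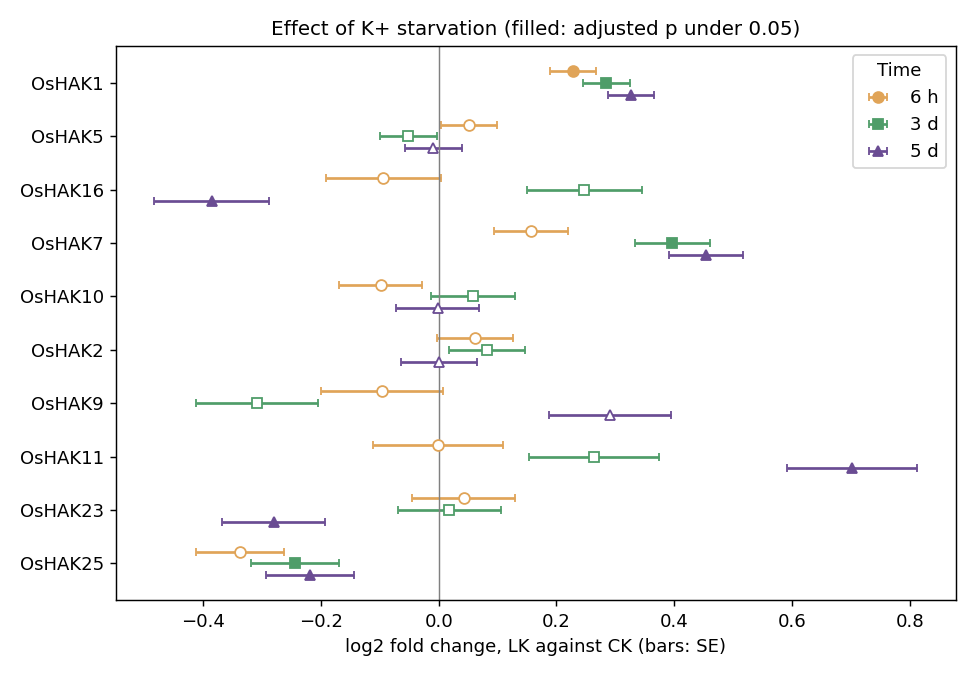
log2 fold change of LK against CK for the main probe set of each of the 10 HAK/KUP genes (vertical axis) at 6 h (circles), 3 d (squares) and 5 d (triangles), with SE from the limma fit; filled symbols have an adjusted p under 0.05. OsHAK1 and OsHAK7 lie to the right of 0 at all 3 times, OsHAK25 lies to the left, and OsHAK11 has the largest value of the 10 genes, 0.70 at 5 d.

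Array medians ran from 22.1 to 23.37 signal units, and log2 signals of arrays of one group correlated at 0.991 to 0.995 over 18 pairs, against 0.982 to 0.995 between groups. In whole roots, fewer cells of a type and less transcript per cell cannot be told apart. The summed signal of 6 root markers, among them the silicon transporters Lsi1 and Lsi2, was 11739 to 14069 over all arrays. Most of it came from Lsi1 and Lsi2, with mean signals of 4852 and 4272, while OsIRT1 and OsSCR1 had means of 90.8 and 54.8. At 5 d that sum was 12314 to 12513 in LK and 13488 to 14069 in CK, with 3 of 6 markers lower and 1 higher. The lower ones, as means in CK and LK, were OsAMT1;2 (1912 and 1288), Lsi2 (4519 and 3941) and OsIRT1 (99.3 and 73.5). The higher one was OsSCR1 (54.7 and 71.3), and Lsi1 was not called. The summed signal of 4 genes of green tissue, unlike that of the root markers, was higher in LK at 5 d, 5700 to 6782 against 4764 to 5463, with 2 of 4 higher. At 3 d 2 of the 6 root markers were lower and none of the green ones was called, and at 6 h none of either list was called. At 6 h the green genes had summed signals of 2736 to 3230 in LK and 2017 to 2745 in CK, a median log2 fold change of 0.41 (0.47 at 5 d) and arrays that did not overlap for 2 of the 4. The green sum also moved with time in CK, to 3874 to 5544 at 3 d. In CK 3 of the 4 green genes were called higher at 3 d than at 6 h (background 5.91% of all probe sets). The part of these shifts in the HAK/KUP results was not tested.

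Among the carriers known to take up K+ at the root surface, OsHAK1, the main high-affinity uptake carrier of rice roots (gene 4335729, probe set Os.11262.2.S1_x_at), was higher in LK at all 3 times. At 6 h its signals were 1991, 1924 and 1906 in CK and 2244, 2332 and 2238 in LK. At 3 d they were 2023.5, 2093 and 1998 in CK and 2478, 2449 and 2521 in LK. At 5 d they were 2152, 2163 and 2245 in CK and 2789, 2821 and 2618 in LK. Every LK array lay above every CK array of the same time. The mean was 17.1% higher at 6 h (log2 fold change 0.23 ± 0.04 SE, adjusted p = 0.014), 21.8% higher at 3 d (0.28 ± 0.04, adjusted p = 9.9e-05) and 25.4% higher at 5 d (0.33 ± 0.04, adjusted p = 1.2e-05). These are small steps on a high signal, and the array spread behind them was small as well, with SDs of 36.3 to 109 units in the 6 groups. In order of mean signal the groups ran CK at 6 h, 3 d and 5 d, then LK at 6 h, 3 d and 5 d. Arrays of neighbouring groups overlapped between CK at 5 d and LK at 6 h, while LK at 3 d and LK at 5 d did not overlap. The 6 h call was lost when any one of CK 6 h replicates 2 and 3 or LK 6 h replicates 2 and 3 was left out, with adjusted p of 0.053 to 0.067, and when only the arrays of that time were fitted (adjusted p = 0.16).

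A second OsHAK1 probe set, Os.11262.1.S1_a_at, gave the same picture at a lower signal. Its means in CK and LK were 1279 ± 99.5 and 1550 ± 42.3 at 6 h (SD, n = 3), 1337 ± 30.5 and 1698 ± 80.8 at 3 d, and 1438 ± 25.8 and 1895 ± 145 at 5 d. The log2 fold changes of 0.28, 0.34 and 0.40 had adjusted p of 0.047, 0.00089 and 0.00013, and LK and CK arrays again did not overlap. The probe sets of OsHAK1 share sequence of a single gene and are not independent replicates, and the ending x_at of the main one marks probes that may also bind other transcripts. Their log2 signals correlated at r = 0.97 over the 18 arrays.

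**Figure D2:**
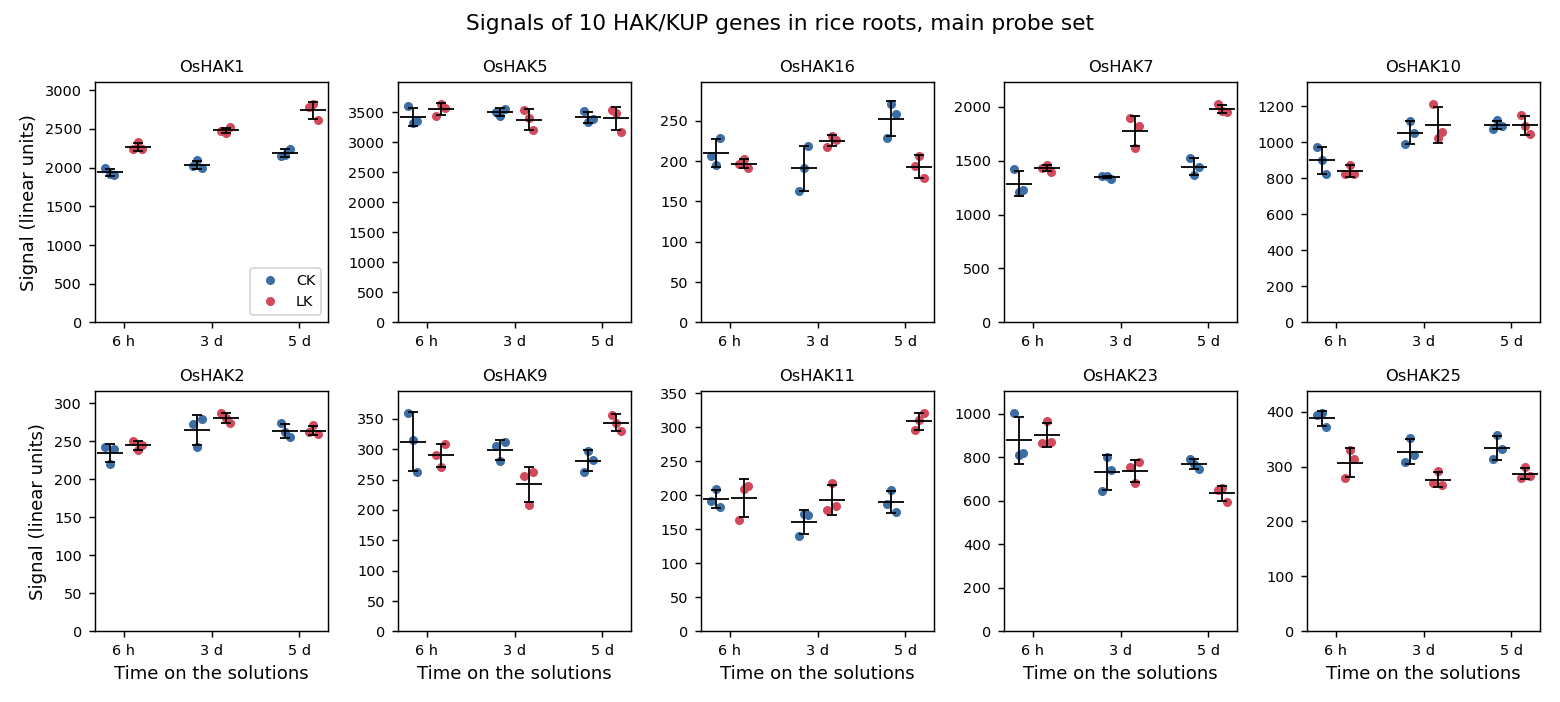
Signal of the main probe set (vertical axis, linear units from 0) on each array for the 10 genes at 6 h, 3 d and 5 d, with CK in blue, LK in red, and black bars for the mean and SD of 3 arrays. The red points of OsHAK1 lie above the blue at each time, those of OsHAK25 lie below, and those of OsHAK11 stand at 295.9 to 320.5 at 5 d, above all other arrays of that gene.

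OsHAK5, known for high-affinity K+ uptake and for K+ transport from root to shoot (gene 4326945, probe set Os.4415.1.S1_at), kept a nearly level signal. Over the 18 arrays it ranged from 3170 to 3632, and in each time point LK and CK arrays overlapped. The ratio of LK to CK had a 95% interval of 0.966 to 1.11 at 6 h, 0.899 to 1.04 at 3 d and 0.926 to 1.07 at 5 d, with adjusted p of 0.85, 0.52 and 0.92, so that a change of the size seen for OsHAK1 at 5 d lay outside all 3 intervals. The second OsHAK5 probe set, Os.17158.1.S1_at, had signals of 12.4 to 37.4 and was too dim for the main test. Its LK and CK arrays overlapped at 6 h and 3 d. At 5 d its means were 25.8 in CK and 17.2 in LK without overlap. That log2 fold change of -0.62 did not pass in the limma fit with all probe sets (adjusted p = 0.18). This dim probe set followed the main one poorly, with r = 0.20 over 18 arrays.

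OsHAK16, described for K+ uptake and translocation in salt-stressed rice (gene 4333298, probe set Os.20541.1.S1_at), fell in LK at 5 d. Its 5 d signals were 229, 271 and 258 in CK and 194, 207 and 179 in LK, a fall without overlap of 23.5% (log2 fold change -0.39 ± 0.10, adjusted p = 0.0082). At 3 d the signals were 163, 191 and 219 in CK and 218, 231 and 226 in LK. Here the groups overlapped by 1 array, and the mean was 17.9% above CK without passing the test (adjusted p = 0.10), which it did without CK 3 d replicate 3 (adjusted p = 0.025). At 6 h the means were 210.3 ± 17.3 in CK and 197 ± 5.51 in LK (SD, n = 3; adjusted p = 0.87). Part of this pattern lay in the controls, since the CK mean was 191 ± 27.9 at 3 d and 253 ± 21.6 at 5 d.

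OsHAK7 (gene 4344235, probe set Os.15701.2.S1_at), rose at 3 d and 5 d. Its signals at 6 h were 1420, 1209.5 and 1229 in CK and 1434, 1459 and 1398 in LK, and 1 CK array lay within the range of LK. At 3 d they were 1354, 1353 and 1334 in CK and 1890.5, 1620.5 and 1820.2 in LK. At 5 d they were 1519.5, 1369 and 1444 in CK and 2023, 1962 and 1947 in LK. From 3 d on, all LK arrays were above all CK arrays. The mean was 11.2% above CK at 6 h without passing (0.16 ± 0.06, adjusted p = 0.43), 31.9% higher at 3 d (0.40 ± 0.06, adjusted p = 0.00039) and 36.9% higher at 5 d (0.45 ± 0.06, adjusted p = 5.2e-05). Both calls held in each of the 30 other settings tried, as did those of OsHAK1 at 3 d and 5 d, OsHAK11 at 5 d and OsHAK16 at 5 d.

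The second OsHAK7 probe set, Os.15701.1.S1_x_at, was dimmer and scattered more. Its means in CK and LK were 258 ± 62.3 and 323 ± 86 at 6 h (SD, n = 3), 265 ± 21.8 and 424 ± 76.7 at 3 d, and 362 ± 102 and 536 ± 93.6 at 5 d. The log2 fold change of 0.67 ± 0.21 at 3 d passed (adjusted p = 0.045), and that of 0.59 ± 0.21 at 5 d did not (adjusted p = 0.055), although LK and CK arrays did not overlap at either time. Both probe sets had LK above CK at all 3 times, and they correlated at r = 0.90.

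OsHAK10, a carrier of the vacuole membrane (gene 4341573, probe set Os.5614.1.S1_at), moved with time and not measurably with K+. Its means were 901 ± 74.8 in CK and 840.1 ± 31.1 in LK at 6 h (SD, n = 3), 1052 ± 64.2 and 1097 ± 100.03 at 3 d, and 1096 ± 23.7 and 1095 ± 52.5 at 5 d. The 95% interval of the ratio of LK to CK was 0.842 to 1.04, 0.939 to 1.15 and 0.901 to 1.11 at the 3 times (adjusted p = 0.76, 0.63 and 0.99). The second probe set, Os.5614.1.S1_x_at, gave log2 fold changes of -0.05, 0.10 and -0.08, none of which passed, and correlated with the main one at r = 0.96.

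**Figure D3:**
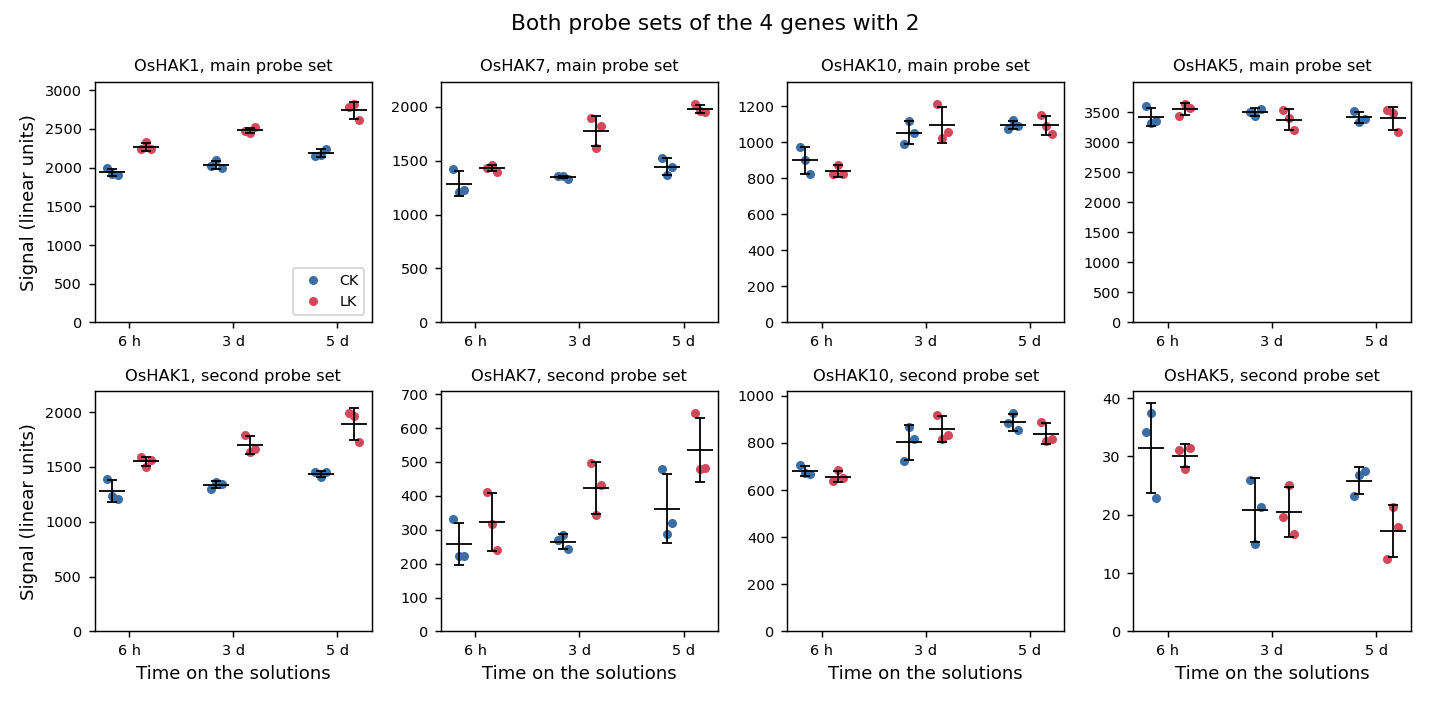
Signals of both probe sets (upper row main, lower row second) of OsHAK1, OsHAK7, OsHAK10 and OsHAK5 by time, with CK in blue, LK in red and black bars for the mean and SD of 3 arrays on linear axes from 0. For OsHAK1 and OsHAK7 the LK means lie above the CK means in both rows at each time, and the second probe set of OsHAK5 stays under 37.5 units.

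The largest change among the 10 genes was that of OsHAK11 at 5 d (gene 4336979, probe set Os.53340.1.S1_at). Its signals were 187, 207 and 176 in CK and 296, 309.9 and 320.5 in LK at that time, and the LK arrays were the 3 highest of all 18. The mean was 62.4% higher (log2 fold change 0.70 ± 0.11, adjusted p = 0.00018). At 6 h the signals were 192, 209 and 183 in CK and 164, 209 and 214 in LK, with fully mixed groups and a log2 fold change of -0.00064. At 3 d they were 140.1, 172 and 171 in CK and 178, 218 and 184 in LK. The 3 d groups did not overlap, but the 20.0% difference in means, against CK arrays that were themselves low, did not pass (0.26 ± 0.11, adjusted p = 0.12). It passed with the replicate number as a block across time points (adjusted p = 0.045).

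OsHAK9 (gene 4344288, probe set Os.13483.1.S1_at) changed side between 3 d and 5 d. Its signals at 3 d were 304, 280.2 and 312 in CK and 255, 209 and 263 in LK. At 5 d they were 263, 297 and 282 in CK and 357, 344 and 329 in LK. LK lay below CK without overlap at 3 d (log2 fold change -0.31 ± 0.10, adjusted p = 0.057) and above it without overlap at 5 d (0.29 ± 0.10, adjusted p = 0.052), and neither difference passed. Signals at 6 h were mixed, 359, 315 and 263 in CK and 290.1, 271 and 309 in LK. Leaving out CK 6 h replicate 1 or 3, LK 3 d replicate 3 (3 d) or LK 3 d replicate 2 (5 d) brought these differences under the threshold, with adjusted p of 0.028 to 0.049 at 3 d and 0.026 to 0.034 at 5 d. Other settings did so too, 3 at 3 d and 6 at 5 d, among them quantile normalization (adjusted p = 0.023 and 0.036) and, at 5 d, a fit to the arrays of that time alone (adjusted p = 0.016).

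OsHAK25 (gene 4330614, probe set Os.26684.1.S1_at) was the member that lay below CK at every time. Its signals at 6 h were 394, 397 and 371 in CK and 279, 329 and 314 in LK. At 3 d they were 308, 352 and 321 in CK and 270.2, 291 and 266 in LK. At 5 d they were 313, 357 and 332 in CK and 279, 299 and 283 in LK. No LK array reached a CK array of the same time. The difference of 20.7% at 6 h was the widest of the 3 but did not pass (log2 fold change -0.34 ± 0.07, adjusted p = 0.053), whereas the signal fell by 15.6% at 3 d (-0.24 ± 0.07, adjusted p = 0.036) and by 14.1% at 5 d (-0.22 ± 0.07, adjusted p = 0.043). With few probe sets changed at 6 h, the adjustment there was harder on a given p: the unadjusted p was 0.0003 at 6 h and 0.0045 at 3 d.

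The OsHAK25 calls lay close to the threshold, and with all 57194 probe sets tested the adjusted p were 0.065 at 3 d and 0.074 at 5 d. The 3 d call was lost without CK 3 d replicate 2 or 3 or LK 3 d replicate 1 or 3 (adjusted p of 0.058 to 0.14). The 5 d call was lost without CK 6 h replicate 2, LK 6 h replicate 3, CK 3 d replicate 3, LK 3 d replicate 1, CK 5 d replicate 2 or 3, or any LK 5 d array (adjusted p of 0.0501 to 0.18). The 6 h difference passed without CK 3 d replicate 1 (adjusted p = 0.046). The log2 fold change stayed below 0 in all of these fits.

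OsHAK23 (gene 4346918, probe set Os.53102.1.S1_s_at, whose ending marks probes shared by several transcripts) fell at 5 d. Its signals then were 793, 771 and 747 in CK and 649, 659.9 and 596 in LK, with no overlap and a mean 17.6% below CK, a log2 fold change of -0.28 ± 0.09 (adjusted p = 0.029). At 6 h and 3 d the groups overlapped and the log2 fold changes were 0.04 and 0.02. Without CK 5 d replicate 1 or 2 or LK 5 d replicate 1 or 3 the 5 d call was lost (adjusted p of 0.051 to 0.12), as it was with all probe sets tested (adjusted p = 0.089).

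OsHAK2 (gene 4326793, probe set Os.26989.1.S1_a_at) had signals of 221 to 287 over the 18 arrays. LK and CK overlapped at each time. The 95% interval of the ratio of LK to CK was 0.9498 to 1.15 at 6 h, 0.964 to 1.16 at 3 d and 0.911 to 1.099 at 5 d, and the adjusted p were 0.87, 0.44 and 0.997.

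Whether the response itself changed between times was tested as a difference of LK effects. For OsHAK11 the 5 d effect exceeded the 6 h effect by 0.70 ± 0.16 on the log2 scale (adjusted p = 0.0077), where 4.85% of all probe sets were called higher and 5.31% lower. For OsHAK7 the same difference was 0.30 ± 0.09 (adjusted p = 0.042), and for OsHAK1 it was 0.10 ± 0.06 (adjusted p = 0.30). A growing effect was thus called for OsHAK7 and not for OsHAK1, and these genes were not tested against each other. Between 3 d and 5 d the effect on OsHAK16 fell by 0.63 ± 0.14 (adjusted p = 0.033), a contrast in which 0.374% of probe sets were called lower. The corresponding change of OsHAK9, from below to above CK, was 0.60 ± 0.15 and did not pass (adjusted p = 0.064), against 0.656% of probe sets called higher. None of the 10 genes was called between 6 h and 3 d, where 2.88% of probe sets were.

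The change of the OsHAK11 effect passed in each of the 25 other settings tried. That of OsHAK7 was lost without CK 6 h replicate 1, any LK 6 h array, CK 3 d replicate 2 or 3, LK 3 d replicate 3, CK 5 d replicate 2 or 3, or any LK 5 d array (adjusted p of 0.0502 to 0.12). That of OsHAK16 was lost without CK 3 d replicate 1 or 2, any LK 3 d array, CK 5 d replicate 2 or 3, or LK 5 d replicate 1 or 3 (adjusted p of 0.053 to 0.11). With all probe sets tested, both of these were lost (adjusted p = 0.11 each). That of OsHAK9 from 3 d to 5 d passed without CK 6 h replicate 1 or 3 (adjusted p of 0.028 to 0.031). From 6 h to 5 d the effect changed by 0.39 ± 0.15 for OsHAK9 and by -0.32 ± 0.12 for OsHAK23 (adjusted p = 0.11 and 0.12), which passed without CK 6 h replicate 3 (adjusted p = 0.026) and CK 6 h replicate 1 (adjusted p = 0.025) respectively.

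Levels in K+-replete roots also moved with time, in which age, days on the renewed solution and hour of harvest cannot be told apart. OsHAK10 rose in CK from 6 h to 3 d (log2 difference 0.23 ± 0.07, adjusted p = 0.039) and was 0.29 ± 0.07 higher at 5 d than at 6 h (adjusted p = 0.0095), and its second probe set gave 0.23 and 0.38 (adjusted p = 0.028 and 0.00076). OsHAK1 was 0.17 ± 0.04 higher in CK at 5 d than at 6 h (adjusted p = 0.0054). OsHAK25 was lower in CK at 3 d than at 6 h (-0.25 ± 0.07, adjusted p = 0.034), a shift as large as its fall in LK at 3 d. OsHAK16 rose in CK from 3 d to 5 d by 0.41 ± 0.10 (adjusted p = 0.016). The background was 5.91% higher and 9.18% lower for 3 d against 6 h, 7.56% and 1.63% for 5 d against 3 d, and 9.94% and 6.85% for 5 d against 6 h.

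Each of these 5 time differences in CK was lost in at least 1 other setting. Without an array, OsHAK10 lost its 3 d call for CK 6 h replicate 2 or 3, CK 3 d replicate 2 or 3 or LK 5 d replicate 2 (adjusted p of 0.052 to 0.15) and its 5 d call for CK 6 h replicate 3 (adjusted p = 0.053). OsHAK25 lost its call for CK 6 h replicate 1 or 2 or CK 3 d replicate 1 or 3 (adjusted p of 0.085 to 0.12), and OsHAK16 for CK 3 d replicate 1 or CK 5 d replicate 2 (adjusted p of 0.075 to 0.093). That of OsHAK1 held without any single array.

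Across the 18 arrays, which share their groups, the log2 signals of OsHAK1 and OsHAK7 ran most closely together of the 45 gene pairs (r = 0.94, and 0.93 after the mean of each time was taken out). OsHAK25 ran against both, with r = -0.76 for OsHAK1 and -0.77 for OsHAK7. OsHAK11 was less close to OsHAK1 (r = 0.70) and OsHAK7 (r = 0.64). These values describe the same 6 groups as the comparisons above and carry no test.

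Among 2129 other named genes, those whose log2 signal correlated best with OsHAK1 over the 18 arrays were OsWNK8 (r = 0.97), OsWNK7 (r = 0.97), both kinases of the WNK type whose probe sets come from 1 sequence cluster of the array, and the Na+ and K+ transporter gene OsHKT2;1 (r = 0.95). The mean signal of OsWNK7 was 564 in LK and 294 in CK at 3 d, and 732 and 328 at 5 d. OsHAK7 was closest to OsWNK7 (r = 0.95), the kinase gene OsCIPK23 (r = 0.95) and ISP (r = 0.95). OsHAK11 was closest to OsFON1 (r = 0.95), OsCIN2, a cell wall invertase (r = 0.94), and PHY18 (r = 0.91). The order depended on the measure: by Spearman's rho the first 3 for OsHAK7 were OsCIPK23, OsZIP5 and OsHAK1 (rho = 0.93 each; ISP 0.83), and for OsHAK11 MSI1 (rho = 0.85) took the place of PHY18 (rho = 0.72), while the first 3 for OsHAK1 were the same genes. OsFON1 had a mean of 926 in LK and 571 in CK at 5 d, and OsCIN2 989 and 659.7.

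Of the other genes of the family, 12 were joined to a probe set. OsHAK6, OsHAK19 and OsHAK24 were joined to none by the annotation used, and OsHAK8 was not found there by name. These genes were therefore not analysed here. The paper lists OsHAK24 and OsHAK8 among the transporter genes lowered under K+ deficiency, and those changes were not tested here. Only 5 of the 12 were bright enough to be tested (OsHAK4, OsHAK12, OsHAK14, OsHAK15 and OsHAK18). Over all probe sets tested, the shares higher and lower were 0.27% and 0.258% at 6 h, 8.5% and 5.75% at 3 d, and 10.5% and 12.8% at 5 d. Of the 5 genes, 0 were called at 6 h or 5 d and 1 was lower at 3 d. That gene, OsHAK12, known in rice roots for retrieving Na+ from the xylem, had signals of 221, 222 and 221 in CK and 204, 181 and 184 in LK at 3 d (log2 fold change -0.23 ± 0.07, adjusted p = 0.047). The call rested on little: it was lost without 1 of 11 arrays in turn (adjusted p of 0.052 to 0.15), namely any of CK at 3 d, LK 3 d replicate 2 or 3, CK 6 h replicate 3, LK 6 h replicate 1, or replicate 2 or 3 of either group at 5 d. The OsHAK12 call was also lost with all probe sets tested (adjusted p = 0.061), with the replicate block within time points and with only the arrays compared. OsHAK18 was called in no time point. Its LK effect differed between 6 h and 5 d (-0.39 ± 0.10 on the log2 scale, adjusted p = 0.024), where 5.31% of all probe sets were called lower. This change was not run in the other settings.

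The other genes of K+ movement on the list of carriers, channels and their kinases gave 7 tested genes. OsCIPK9, CBL1, OsKCO3 and several HKT genes were listed but joined to no probe set. No channel of the AKT2 or SKOR type was listed. The paper reports OsCIPK9 and channels of both those types as raised under K+ deficiency. The 7 are thus a subset and not a survey. At 6 h 1 was higher and 0 lower, at 3 d 4 were higher and 2 lower, and at 5 d 4 were higher and 2 lower. Among all probe sets tested, 0.27% were higher and 0.258% lower at 6 h. The shares were 8.5% and 5.75% at 3 d, and 10.5% and 12.8% at 5 d. OsHKT2;1, which takes up Na+ in K+-starved rice roots, had the largest change of the 7, from 54.2 ± 2.11 in CK to 139.7 ± 10.6 in LK at 6 h (SD, n = 3), from 75.3 ± 4.33 to 605 ± 105 at 3 d and from 91.2 ± 4.18 to 700.1 ± 76.4 at 5 d. Its log2 fold changes of 1.36, 2.99 and 2.94 (adjusted p = 1.6e-05, 1.2e-11 and 1.1e-11) stand beside 0.23, 0.28 and 0.33 for OsHAK1.

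OsCIPK23, a kinase known to activate AKT1-type channels, rose at 3 d (0.67 ± 0.06, adjusted p = 6.9e-07) and 5 d (0.63 ± 0.06, adjusted p = 6.8e-07), as OsHAK7 did. A second OsCIPK23 probe set passed at neither time, with log2 fold changes of 0.09 and 0.09. OsCIPK6, of the same kinase family, went from 70.3 ± 5.08 to 168 ± 9.77 at 3 d and from 80.5 ± 2.19 to 146 ± 4.11 at 5 d, with log2 fold changes of 1.26 and 0.86. The two-pore channel gene OsKCO1 rose at 3 d and 5 d (0.46 and 0.54), and OsKCO2 fell at 3 d by 0.41 on the log2 scale, a call lost without CK 3 d replicate 3 or LK 3 d replicate 1 (adjusted p of 0.066 to 0.068).

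OsAKT1, the inward K+ channel that works beside OsHAK1 in uptake, had signals of 994 ± 125 in CK and 1222 ± 44.4 in LK at 6 h (SD, n = 3; adjusted p = 0.065), 1187 ± 36.1 and 1078 ± 14.2 at 3 d, and 1433 ± 46.6 and 1247 ± 68.2 at 5 d. Its fall of 13% at 5 d passed narrowly (adjusted p = 0.048) and was lost in 20 of 28 other settings. It was lost on leaving out 1 array in 13 of 18 cases (adjusted p of 0.053 to 0.17). The call was also lost with all probe sets tested, quantile normalization, median centring, a floor of 50 units, either replicate block and no intensity trend. The 6 h difference passed without CK 6 h replicate 1 (adjusted p = 0.027) and with quantile normalization. The Na+ transporter gene OsHKT1;5 was lower at 3 d (-0.71 ± 0.17, adjusted p = 0.0095) and 5 d (-0.48 ± 0.17, adjusted p = 0.049). Its 5 d call was lost on leaving out 1 array in 12 of 18 cases (adjusted p of 0.051 to 0.22). That call was also lost with all probe sets tested and with median centring. The 3 d call was lost with a floor of 50 units (adjusted p = 0.26).

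**Figure D4:**
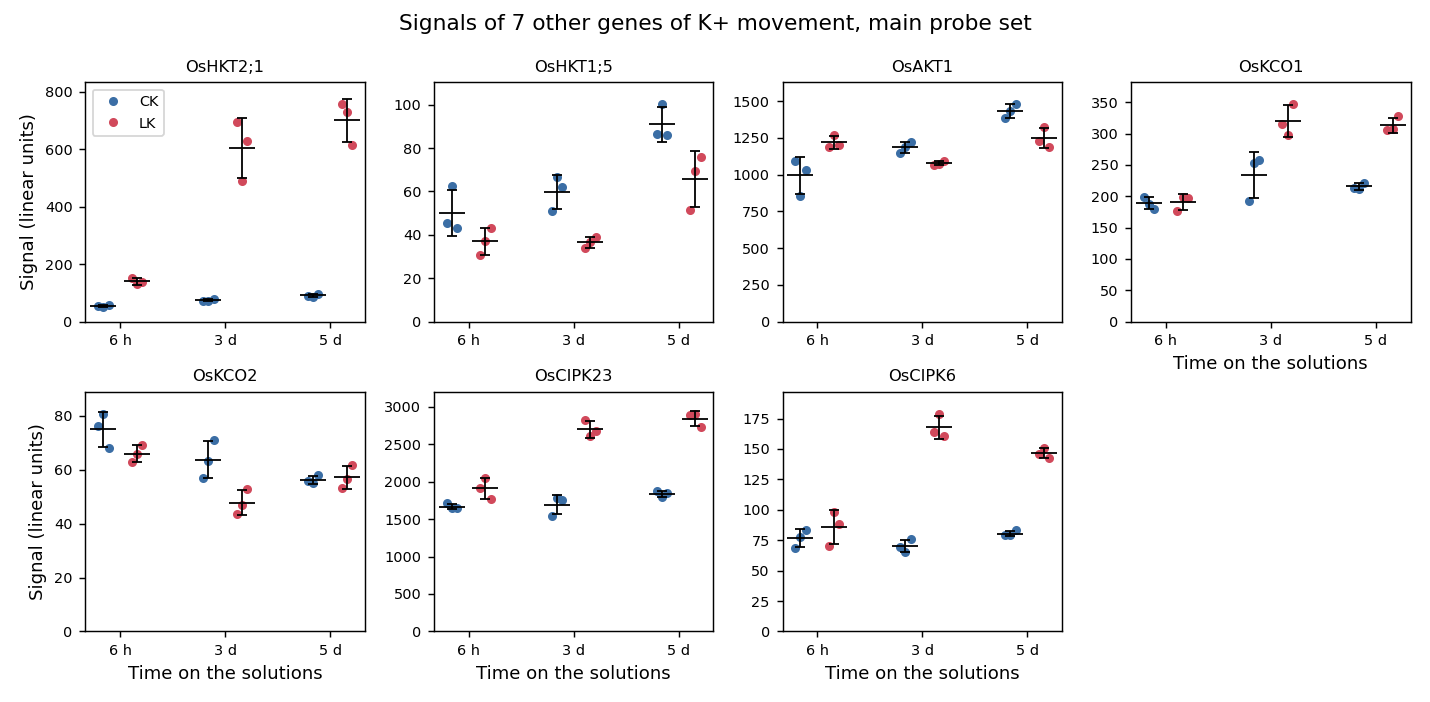
Signals (linear units from 0) of the main probe set of 7 other genes of K+ movement on each array at 6 h, 3 d and 5 d, with CK in blue, LK in red, and black bars for the mean and SD of 3 arrays. OsHKT2;1 stands at 605 and 700.1 units on average in LK at 3 d and 5 d against 75.3 and 91.2 in CK.

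Of the members' direct neighbours in the rice gene order (RefSeq annotation of assembly ASM3414082v1), 10 could be tested. Of these, 5 were called at 1 or more times, and those 5 are named because of their values. The share of all probe sets passing at any time was not computed, so this count has no background beside it. For 5 d alone, 10.5% of all tested probe sets were higher and 12.8% lower. OsHAK9 lies next to OsCIPK2, whose main probe set Os.4627.1.S1_x_at rose at 3 d (0.54 ± 0.06, adjusted p = 1e-05) and 5 d (0.28 ± 0.06, adjusted p = 0.0026). OsHAK9 lay below CK at 3 d and above it at 5 d, and neither of these differences was called. LOC4336978 beside OsHAK11 rose at 5 d (0.52 ± 0.10, adjusted p = 0.00097), as OsHAK11 did, with log2 fold changes of -0.02 at 6 h and 0.27 at 3 d (adjusted p = 0.98 and 0.075). The other three stand beside members that were called at no time. LOC4326946 beside OsHAK5 fell at 3 d (-0.54 ± 0.10, adjusted p = 0.0019), and its calls at 6 h (-0.48, adjusted p = 0.047) and 5 d (-0.33, adjusted p = 0.030) were lost on leaving out 1 array in 14 and 4 of 18 cases (adjusted p of 0.053 to 0.22 and 0.053 to 0.14). LOC4326794 beside OsHAK2 rose at 3 d (0.47 ± 0.11, adjusted p = 0.0074) and 5 d (0.46 ± 0.11, adjusted p = 0.0049), and LOC9266117 beside OsHAK10 fell at 5 d (-0.91 ± 0.16, adjusted p = 0.00048). OsHAK16 lies next to another member of its family, OsHAK27, which was too dim to be tested, with group means of 9.41 to 11.8 units.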

How the data were processed

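The deposited table gave 1 signal intensity per probe set and array on a linear scale. Per the labels and methods, the authors scanned and quantified the arrays with GCOS 1.0 and normalized all 18 together in dChip. No detection calls or raw image data were used here, and the number of arrays limits the precision. Genes were assigned through the platform annotation and RefSeq gene names (22436 probe sets with 1 gene, 95 with several, 34663 with none). OsHKT2;1 was matched through the study's primer list. Signals under 10 were raised to 10 and taken to log2. Ranked by mean log2 signal, the top 44% (25165) entered the tests, which included 13 of 14 HAK/KUP probe sets and the main one of all 10 genes.

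A single limma 3.58.1 fit (R 4.3.3; lmFit, eBayes with intensity trend) held all 6 groups, with 12 residual degrees of freedom. Contrasts were LK against CK at each time, the change of that effect between times, and CK between times, each adjusted by Benjamini-Hochberg over all kept probe sets and called under 0.05. Percent changes compare means of linear signals, and intervals are 95% intervals of the fit. The script was tested on simulated data. Replicates are described as biological, from separate pools of 5 seedlings. Replicate numbers were not used to pair arrays. All 10 members were named with every probe set, other K+ genes where called without overlap of arrays, and for 3 members the 3 best correlated named genes. Members and lists were chosen with earlier results of these data known. Alternatives changed the filter, floor, pseudocount, scaling, trend, block, arrays fitted, probe set rule and single arrays. No sequences were used here.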

Additional observations from a re-analysis of the deposited data

Results flagged for a closer look

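The effect of K+ withdrawal differed between time points, by a test of the difference itself, for 3 of the 10 genes. For OsHAK11 the 5 d effect exceeded the 6 h effect by 0.70 on the log2 scale (SE 0.16, adjusted p = 0.0077). For OsHAK16 the 5 d effect minus the 3 d effect was -0.63 (SE 0.14, adjusted p = 0.033), from 0.25 to -0.39. For OsHAK7 the excess of the 5 d over the 6 h effect was 0.30 (SE 0.09, adjusted p = 0.042). Of these 3 calls, 1 was kept in all 25 other settings, that of OsHAK11. The OsHAK16 call was lost in 12 of them and the OsHAK7 call in 16. Among all probe sets, 4.85% were called higher between 6 h and 5 d, and 0.374% lower between 3 d and 5 d.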

How the results depend on the processing

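Of the 10 LK calls in the 10 genes, 6 held in all 30 alternatives (OsHAK1 and OsHAK7 at 3 d and 5 d, OsHAK11 and OsHAK16 at 5 d), 4 were lost in some (OsHAK1 at 6 h in 8, OsHAK25 at 3 d in 7 and at 5 d in 12, OsHAK23 at 5 d in 7) and 5 differences not called were gained in some. Of the 3 called changes of the LK effect 1 held in every alternative and 3 others were gained in some. Of the 5 calls between times in CK none held in every alternative, and 6 others were gained in some. No call changed direction. The count of genes higher at 6 h went from 1 to 0 with the replicate number as a block within time points, without the intensity trend, with only the arrays compared, and with the study's ratio of 1.2 and an unadjusted p. The count lower at 6 h went from 0 to 1 with the top 30% of probe sets, quantile normalization, log2(signal + 32), the replicate block across time points, and the ratio of 1.2. The count lower at 3 d was 0 without a filter or with only the arrays compared and 2 with quantile normalization or the block across time points. The count higher at 3 d rose from 2 to 3 with the block across time points or the ratio of 1.2, and that at 5 d from 3 to 4 with these, the top 30%, quantile normalization, log2(signal + 32) or only the arrays compared. The count lower at 5 d was 1 without a filter or with median centring. Leaving out 1 array gave 0 to 1 higher and 0 to 1 lower genes at 6 h, 2 to 3 and 0 to 2 at 3 d, and 3 to 4 and 1 to 3 at 5 d. In the block within time points the adjusted p of OsHAK1 at 6 h was 0.099, of OsHAK23 at 5 d 0.0505, of the OsHAK16 effect change 0.051 and of the OsHAK7 effect change 0.058. The block across time points called OsHAK25 at 6 h (adjusted p = 0.011), OsHAK9 at 3 d and 5 d (0.048 and 0.046) and OsHAK11 at 3 d (0.045), and over all probe sets moved the calls from 133 to 217 at 6 h, from 3588 to 4476 at 3 d and from 5853 to 6810 at 5 d; the block within time points gave 97, 3383 and 5574. Deviations of same-numbered LK and CK arrays correlated at -0.09 to 0.26, over 0.1 in 4 of 9 pairs. Replicate 1 at all 3 times was among them. At 5 d each array correlated best with its own number (0.072 to 0.18), and at 6 h and 3 d not every array did. The arrays were left unpaired, and whether a replicate number marks a shared batch was not tested. The causes were not tested. Over all probe sets the share called ran from 0.107% to 0.862% at 6 h, 4.86% to 18% at 3 d and 8.52% to 29.1% at 5 d. Probe sets near background, as for most other genes of the family, could not be tested.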
